A study of Mus musculus with 12 samples.

Results

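The regions described here are m6A peaks of mouse skin whose midpoint falls in an intron of their gene. They were chosen by position alone: peaks called in UV skin, at most 10000 bp from end to end, that overlapped a peak called in Control skin by at least 1 base on the same strand, with a midpoint inside their host gene but in none of its annotated exons. Of 42989 deposited peaks (24969 called in UV and 18020 in Control), 14219 UV peaks up to 10000 bp were shared, and 2562 of these had an intronic midpoint. All 2562 touched exons of the host gene and 0 touched none, so the split into exon-touching and purely intronic peaks gave a single class. They lay in 2158 genes, 312 of which held at least 2 of them.

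The study profiled skin from UV-treated and Control mice by methylated RNA immunoprecipitation and sequencing, in work on photoaging, collagen synthesis and the writer subunit KIAA1429 (Virma). Each condition had 3 samples, and each sample gave an immunoprecipitated (IP) library, enriched with an antibody against m6A, and an input library of the same RNA. Strain, age and sex of the mice, and the type, dose and timing of UV, were not given in the sources used here. Samples of a condition are not stated to be separate animals, so p-values measure the spread between these samples, which may be technical. The libraries held 24126662 to 92163619 reads in genes. Reads counted in the 2562 peaks, set against those counted in genes, came to 15.1% to 15.4% in UV IP libraries and 14.3% to 15.9% in Control IP libraries. In input libraries they came to 8.36% to 8.47% in UV and 8.18% to 8.29% in Control. Peaks and genes were counted apart, so these are ratios and not shares. The median peak had 264 to 1679 reads in a library. Summed input levels of marker genes were those of skin, with all 7 basal and all 7 differentiated keratinocyte markers detected. T cell markers summed to 1.17 to 1.89 CPM (scaled read counts, 1 unit being 1e-06 of a library) in UV against 7.55 to 9.85 in Control, and sebocyte markers to 1943 to 2312 in UV against 1006 to 1365 in Control. Basal keratinocyte sums (9548 to 14107 CPM in UV, 4794 to 9525 in Control) and adipocyte sums (310 to 347 in UV, 225 to 248 in Control) were also higher in UV without overlap. Fibroblast sums were lower without overlap, at 5591 to 6525 CPM in UV and 7860 to 8822 in Control. Sums for skeletal muscle overlapped, at 1951 to 5605 CPM in UV and 4924 to 11004 in Control. In such bulk tissue, fewer cells of a type and less RNA per cell cannot be told apart.

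N6-methyladenosine is placed on nascent transcripts by a writer complex built around METTL3 and METTL14, with VIRMA, WTAP, ZC3H13 and other subunits. In mammalian mRNA it sits mostly in long internal exons, around stop codons and in last exons, in a sequence context of which GGACT is the best known form. Exons close to splice junctions carry little of it, because the exon junction complexes deposited there keep the writers away. Reader proteins then bind the mark, in the nucleus (YTHDC1) and in the cytoplasm (YTHDF proteins), and act on splicing, export, translation and decay. Some peak callers work along spliced transcripts and report a peak by its genomic ends, so a peak that crosses a splice junction is written as a span that contains the intron.

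Every one of the 2562 spans began in one exon of its host gene and ended in another. The spans touched 2 exons in 1754 cases (68.5%), 3 exons in 517 (20.2%) and 4 or more in 291 (11.4%), with at most 9. The median span was 2298 bases (138 to 9990), of which a median of 330 bases (59 to 4991) was exonic. The exonic share of the span had a median of 16.8% and ranged from 1.02% to 94.7%. In 1467 spans (57.3%) at least 80% of the bases were intronic. The exonic bases of a span came to a multiple of 30, or 1 more or fewer, in 1796 cases (70.1%), whereas the full span did so in 250 (9.76%). A whole number taken at random falls in that class in 10% of cases. Shared peaks inside 1 exon, which contain no intron, showed the 30-base step in their full length in 85.2% of 11246 cases. The midpoints were therefore in introns of spans whose lengths, counted over exons only, followed the same step as peaks that lie wholly in an exon.

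**Figure D1:**
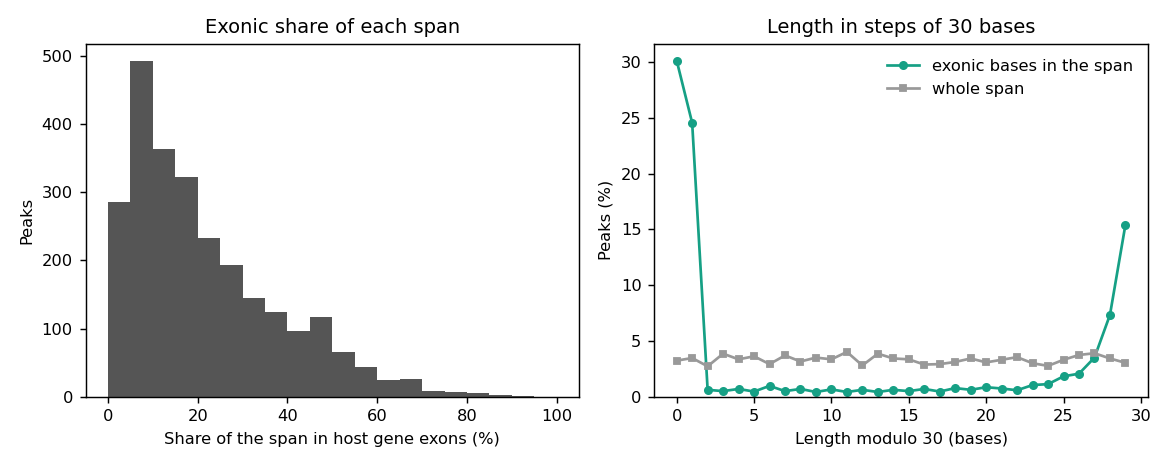
Left, histogram of the 2562 peaks by the share of their span that lies in host gene exons (%), in bins of 5 percentage points. Right, percentage of the peaks at each remainder after dividing a length in bases by 30, for the exonic bases of the span (circles) and the whole span (squares). The exonic bases gather at 29, 0 and 1, which together hold 70.1% of the peaks, while the whole span is spread evenly.

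Internal exons only were touched by 1253 of the peaks (48.9%), the last exon by 804 (31.4%), the first exon by 398 (15.5%) and both ends of a gene by 107 (4.18%). Among shared peaks with exonic midpoints, crossing a junction was rare in last exons (1.81% of 6406) and first exons (2.59% of 1237), rare in internal exons of at least 400 bases (4.92% of 2988), and more common in shorter internal exons, where 37.9% of 306 touched a further exon. Junction-crossing peaks with an intronic midpoint had already been sorted out of these classes. The shares therefore do not measure how often peaks at such exons cross a junction. The host genes had a median of 14 exons. Arid4b, which encodes a chromatin-binding protein, held 6 of the peaks. Bdp1 (an RNA polymerase III initiation factor), Cenpe (a kinetochore motor), Cntrl (a centriole protein) and Ttn (the giant muscle protein titin) held 5 each. The 4-peak genes included Zc3h13, the splicing coactivator gene Srrm1, the nuclear pore gene Tpr and the nonmuscle myosin gene Myh9. Exons of another gene fell inside 320 spans (12.5%), on the opposite strand in 240 (9.37%) and on the same strand in 88 (3.43%).

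Just inside the length limit were Fam192a (span 9982 bases) and Col28a1 (9990), and just outside it Kif3a (10030) and Nlrp1b (10034). Fam192a had 1949, 5923 and 2564 raw reads in the UV IP libraries, against 3651, 3202 and 1666 in the Control ones. Col28a1 had 61, 221 and 84 in UV IP, against 269, 219 and 60 in Control IP. Beyond the limit, Kif3a had 1512, 4643 and 2032 reads in UV IP, against 2918, 2790 and 1164 in Control IP, and Nlrp1b had 105, 316 and 122 in UV IP, against 292, 336 and 98 in Control IP. Each side of the limit held 1 deeply and 1 thinly covered peak.

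The sequence inside these spans is mostly intronic, and 8 annotated microRNA hairpins lay wholly within 7 of them on the host strand, 7 of the 8 with no base in a host exon. They are shown because they mark what a span contains besides exons: microRNAs that are processed from intronic sequence of the host transcript. Mature sequences are RefSeq's on build GRCm38.p6, written 5′ to 3′, with the seed (bases 2 to 8) in capitals. The span in Huwe1, a ubiquitin ligase gene, held let-7f-2 and miR-98, whose 5p products share the seed GAGGUAG.
mmu-let-7f-5p: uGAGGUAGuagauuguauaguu
mmu-miR-98-5p: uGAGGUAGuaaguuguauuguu
mmu-miR-7092-5p: aAAGGCAAacucacagaaucauu
mmu-miR-6902-5p: uUCCUCACauugucacaugaag
mmu-miR-1963: uGGGACGAgaucaugaggccuuc
The others came from Fam50a (miR-7092), the phosphatase regulator gene Ppp1r7 (miR-6902) and the muscle calcium channel gene Ryr1 (miR-1963). Further hairpins lay in Brd3, Cmip and Uggt1. The Huwe1 span (chrX:151910239-151914293, 3 exons touched) had 26.3, 27.6 and 30.1 CPM in UV IP, against 30.5, 23.7 and 29.5 CPM in Control IP. In input it had 15.7, 13.8 and 13.9 CPM in UV, against 15.9, 12.6 and 14.6 CPM in Control. Groups overlapped in both kinds of library, and log2 IP over input was 0.95 in UV and 0.95 in Control. The Ryr1 span (chr7:29083376-29085723) had 75.6, 52.8 and 96.1 CPM in UV IP, against 96.3, 206 and 103 CPM in Control IP, with Control 2 highest.

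Beyond microRNAs, sequence was at hand only where a RefSeq promoter window (250 bases before to 50 after a gene start) fell inside a span. This was so for 67 host windows in 60 peaks, which were not limited to exons. Windows of Grin2d, which encodes a glutamate receptor subunit, and of Gpr137, an orphan receptor-like membrane protein gene, lay wholly in exons of the deposited gene models. They are shown as a pair without and with GGACT, picked after the enrichment of their peaks was known. GGACT on the transcript strand is in capitals. The Grin2d window is chr7:45866632-45866931 (minus strand) and the Gpr137 window chr19:6941144-6941443 (minus strand).
Grin2d: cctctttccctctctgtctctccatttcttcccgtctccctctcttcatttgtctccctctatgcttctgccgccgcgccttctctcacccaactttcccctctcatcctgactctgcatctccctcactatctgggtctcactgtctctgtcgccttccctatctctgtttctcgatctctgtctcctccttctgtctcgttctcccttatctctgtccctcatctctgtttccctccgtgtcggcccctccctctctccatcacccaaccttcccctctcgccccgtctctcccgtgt
Gpr137: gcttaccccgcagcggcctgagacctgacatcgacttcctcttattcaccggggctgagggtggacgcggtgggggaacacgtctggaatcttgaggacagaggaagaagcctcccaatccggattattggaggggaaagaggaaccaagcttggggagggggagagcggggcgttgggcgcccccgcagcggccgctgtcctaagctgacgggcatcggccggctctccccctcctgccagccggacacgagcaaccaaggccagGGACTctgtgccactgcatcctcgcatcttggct
Gpr137 held 1 GGACT and Grin2d 0. The Grin2d peak had a log2 IP over input of 1.65 in UV and 1.60 in Control, and the Gpr137 peak 1.18 in UV and 1.44 in Control. The window of the adaptor gene Shc1 was also wholly exonic and held 0 GGACT, in a peak that was little enriched (0.12 in UV and 0.37 in Control). Over the 67 windows, exonic or not, 17.9% held GGACT on the transcript strand and 28.4% on the opposite strand, against 26.1% and 26% of all 32851 windows. These shares do not describe the exons of the peaks.

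The first comparison set IP against input within each condition. It is a description, because the authors called the peaks for this enrichment. The antibody had enriched nearly all of these peaks, but less than peaks centred in exons. Counts were scaled with library sizes and TMM factors from the gene table, and calls were made at an adjusted p (Benjamini-Hochberg) below 0.05 in edgeR's quasi-likelihood test over all peaks tested. In UV, 2460 of the 2562 were called higher in IP (96%) and 5 lower, where 93.3% of all 41496 tested peaks were called higher and 0.47% lower. In Control, 2452 were higher (95.7%) and 4 lower, where 87.6% of all were higher and 0.434% lower. The 2562 were UV peaks that overlapped a Control peak, whereas the tested peaks include those called in UV or Control only. The shares are therefore not like for like. All 6 samples had a log2 IP over input above 0 in 2481 of the 2562 peaks (96.8%). The median log2 IP over input was 0.89, 0.93 and 0.90 in the UV samples and 0.96, 0.98 and 0.98 in the Control samples. Fitted values ran from 0.37 to 1.71 in UV and from 0.39 to 1.69 in Control between the 5th and 95th percentiles. The level depends on the scaling, since library size alone put the fitted medians at 0.75 in UV and 0.72 in Control, and TMM factors taken from the peak table put them at −0.30 in UV and −0.24 in Control. Differences between classes of peak within a sample do not depend on it.

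Against the 11657 shared peaks with exonic midpoints, the intronic-midpoint peaks were lower in each of the 6 samples, by a median log2 difference of −0.51, −0.49 and −0.51 in UV and −0.31, −0.51 and −0.35 in Control. Last-exon peaks, the class in which m6A is best known, had median log2 IP over input of 1.48 in each of the UV samples and 1.31, 1.54 and 1.39 in the Control samples. The nearest class was short internal exons, at 0.95, 1.00 and 1.02 in UV and 1.02, 1.11 and 1.09 in Control, and there the intronic-midpoint peaks were lower by 0.06 to 0.13 in UV samples and by 0.06 to 0.13 in Control samples. Shared peaks over 10000 bp with an intronic midpoint had medians of 0.53, 0.56 and 0.52 in UV and 0.59, 0.54 and 0.60 in Control. No test was made between classes, whose peaks share the same 6 samples.

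**Figure D2:**
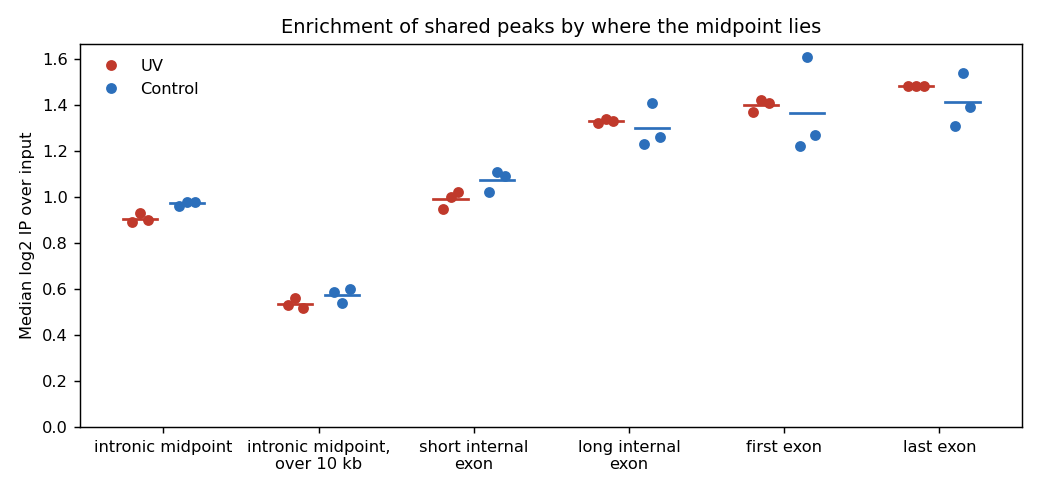
Median log2 IP over input of shared peaks in each sample (points; UV left, Control right; bars are means over 3 samples), by where the midpoint lies. Peaks with intronic midpoints up to 10 kb had medians of 0.89 to 0.93 in UV and 0.96 to 0.98 in Control, below those of long internal, first and last exons in every sample.

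Among the intronic-midpoint peaks, enrichment was higher where more of the span was exonic. The peaks were put in 4 groups of equal size by that share. In the lowest group (1.02% to 8.35%), median log2 IP over input was 0.70, 0.71 and 0.69 in UV and 0.80, 0.74 and 0.81 in Control. The highest group (30.7% to 94.7%) had 1.09, 1.10 and 1.06 in UV and 1.09, 1.19 and 1.12 in Control. The groups between them lay in order, at 0.85 to 0.90 and 1.00 to 1.05 in UV samples and at 0.92 to 0.95 and 1.02 to 1.11 in Control samples. Peaks that touched the last exon had 1.00, 1.03 and 0.97 in UV and 1.03, 1.06 and 1.04 in Control. Peaks over internal exons alone had 0.81, 0.86 and 0.83 in UV and 0.94, 0.90 and 0.95 in Control, below the last-exon peaks in all 6 samples. Spans without an exon of another gene had the same medians as the whole set, 0.89 to 0.93 in UV and 0.96 to 0.98 in Control.

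**Figure D3:**
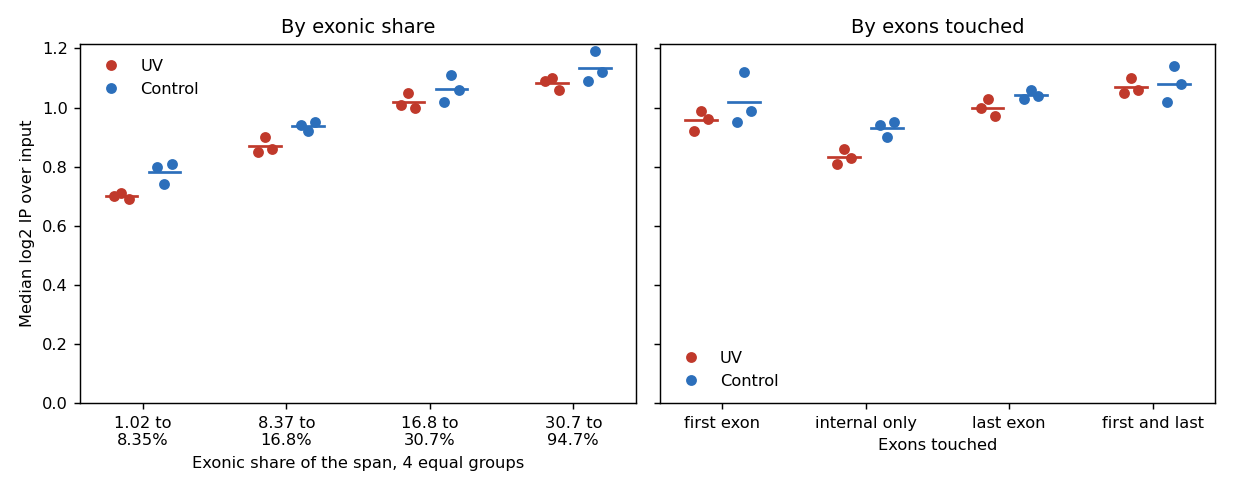
Median log2 IP over input in each sample (points; UV left, Control right; bars are means over 3 samples) for intronic-midpoint peaks, split by the exonic share of the span into 4 groups of equal size (left) and by which exons the span touches (right). Medians are higher with a larger exonic share: in UV samples they lie at 0.69 to 0.71 in the lowest group and at 1.06 to 1.10 in the highest.

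The peaks also held more input reads than their exonic bases would give at the host gene's average density. They covered a median of 6.5% of the host's exon bases but held 38% of its IP reads and 25.9% of its input reads. Input reads per exonic base were a median of 3.46 times the host's. In spans free of other genes' exons this ratio was 5.94 in the group with the lowest exonic share, then 3.53, 3.1 and 2.32 with rising share. More input reads than the whole host gene were counted in 108 of the peaks (4.22%), in 2.54% of those without another gene's exon and in 20% of those with an exon on the opposite strand. How intronic and opposite-strand reads were counted in the spans is not stated in the labels or headers, and their part in these ratios was not tested.

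By a fixed rule on IP over input in UV, the peaks named at the top were in Rbm33, Arid1a (with 2 peaks), Sphk1 and Ppp1r9b. The Rbm33 peak (an RNA-binding protein gene, chr5:28387778-28389769, exons 12 and 13 of 19) had 17.7, 20 and 20.2 CPM in UV IP, against 20.9, 17.8 and 20.2 CPM in Control IP. Its input levels were 2.61, 2.62 and 3.11 CPM in UV, against 4.08, 2.10 and 3.84 CPM in Control, so IP was above input in every sample and the conditions overlapped. The fit gave a log2 IP over input of 2.79 (SE 0.18) in UV and 2.51 in Control. Arid1a encodes a subunit of the SWI/SNF chromatin remodelling complex, and its peaks had 2.58 and 2.47 in UV and 2.39 and 2.32 in Control. Sphk1, the gene of the kinase that makes sphingosine 1-phosphate, had 2.5 in UV and 2.24 in Control, and Ppp1r9b, which encodes the phosphatase scaffold spinophilin, 2.46 in UV and 2.36 in Control.

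At the other end were Mfsd4a, Wdr66, Dyrk2, Eps15l1 and Nap1l4, picked after their values had been seen. The Mfsd4a peak (a transporter family gene, chr1:132023555-132026748) had 23.1, 25.5 and 19.8 CPM in UV IP, against 23.4, 20.9 and 21.8 in Control IP, and 43.5, 43.8 and 41.3 CPM in UV input, against 44.7, 42.6 and 42.3 in Control input. IP lay below input in all 6 samples. Its span contained an exon of Elk4 on the opposite strand, and it held 178% of the input reads counted for Mfsd4a itself. Wdr66 held 551% of its host's input reads beside the opposite-strand pseudogene Rpl35a-ps6, and Dyrk2 held 118% beside 4932442E05Rik. Their log2 IP over input was −0.70 in UV and −0.56 in Control for Wdr66, and −0.43 in UV and −0.13 in Control for Dyrk2. Eps15l1 (−0.33 in UV, −0.18 in Control) and Nap1l4 (−0.33 in UV, −0.12 in Control) held 2.49% and 6.96% of their hosts' reads.

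The 5 peaks with the most IP reads, a count not scaled to length, were in Flg, Ptma, Eif3a, Calr and RP24-302M13.5. Flg encodes filaggrin, the barrier protein of the cornified layer, and its peak (chr3:93278019-93280013, exons 1 and 2 of 2) had 26662, 19217 and 27538 CPM in UV IP, against 22416, 12466 and 31288 CPM in Control IP. Control 3 was the highest and Control 2 the lowest of the 6 samples, so the groups overlapped. Its log2 IP over input was 1.54 in UV and 1.62 in Control. The Flg midpoint lay in a pseudogene on the same strand, Rplp0-ps1, and filaggrin's repeats can share reads, so its value is uncertain. Eif3a, a translation initiation factor gene, had 1.37 in UV and 1.53 in Control over 7 exons, and Calr, which encodes the chaperone calreticulin, 1.10 in UV and 1.34 in Control over 3. The RP24-302M13.5 peak held 1897% of its host's input reads and faced exons of the chromatin regulator gene Ankrd11 on the opposite strand.

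The main comparison asked whether m6A enrichment of these peaks differed between UV and Control skin. No peak passed the test. The change of IP over input was called for 0 of the 2562, as for 0 of the 41496 peaks tested (0%), with a smallest adjusted p of 0.521 among the intronic-midpoint peaks (edgeR quasi-likelihood test). At an unadjusted p below 0.05 there were 158, of which 38 were higher and 120 lower in UV (6.17% of the set, 1.48% higher and 4.68% lower). Over all tested peaks that share was 8.14%, with 5.53% higher and 2.61% lower. The DESeq2 Wald test also called 0. The median log2 change was −0.06 over the intronic-midpoint peaks and 0.04 over all peaks tested, and 0.04 over the intronic-midpoint peaks with library size only. All 3 UV samples lay below all 3 Control samples in 475 of the peaks (18.5%), where the share over all tested peaks was 9.37%. They lay above in 153 (5.97%), where that share was 10%. With library size only the shares were 7.53% below and 12% above, against 4.5% and 15.5% of all tested peaks. Of the 11657 shared peaks with exonic midpoints, 7.93% lay below and 8.2% above, or 3.57% and 14.1% with library size only. By the authors' own deposited FDR, 0 of the intronic-midpoint peaks were below 0.05, where 45 of all 42989 peaks were. The smallest authors' FDR among the intronic-midpoint peaks was 0.0656, for Arhgap33 (log2 2.39).

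IP and input of the same sample departed together from their group means, so a blocked fit, in which both libraries of a sample share a term, is given beside that result. With this block 38 of the peaks were called, 37 lower and 1 higher in UV. Of all tested peaks it called 0.974%, 0.593% lower and 0.381% higher. The 6 samples of every one of the 38 peaks separated by condition. This adds no support, because the peaks were called on the same reads. The count rested on single samples and on the scaling: it was 0 without UV 3, 1 without UV 1 or without Control 3, 9 without UV 2 and 315 without Control 2. Without Control 1 it stayed at 38, with 37 lower. All 9 calls without UV 2 were lower, as were 267 of the 315 without Control 2. With TMM factors from the peak table, 25 of 26 calls were lower. With the block and library size only, 14 were called, 11 higher and 3 lower, against 0.843% and 0.0896% of all tested peaks. The count was therefore not stable, and the main direction of the calls turned with library size only.

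Zbtb8a encodes a BTB zinc finger protein, and its peak (chr4:129354163-129357720, exons 4 and 5 of 5) had log2 IP over input of 0.84, 0.97 and 0.88 in UV, against 1.45, 1.38 and 1.51 in Control. The UV values were all lower, a change of −0.55 (SE 0.12, adjusted p = 0.0199 in edgeR with the block, 0.533 without). In that span, IP reads were 19.5, 23.1 and 21.3 CPM in UV, against 21.2, 18.6 and 21.6 in Control, and overlapped. Input reads were 10.9, 11.8 and 11.5 CPM in UV, against 7.73, 7.12 and 7.59 in Control, with every UV value above every Control value. The span also faces exons of Zbtb8os on the opposite strand, and it held 96.8% of the input reads counted for Zbtb8a.

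Ercc3, the gene of a helicase of nucleotide excision repair and of transcription factor TFIIH, had log2 IP over input of 0.85, 1.06 and 0.90 in UV, against 1.27, 1.51 and 1.49 in Control. All UV values were below all Control values, with a change of −0.48 (SE 0.09, adjusted p = 0.00929 in edgeR with the block, 0.521 without). Its input was 38.1, 36.9 and 39.5 CPM in UV, against 29, 25.7 and 25.6 in Control, and its IP 68.5, 77.0 and 73.8 CPM in UV, against 69.8, 73.3 and 72.1 in Control. Groups were apart in input and overlapped in IP. Chd1l, a chromatin remodeller gene of the DNA damage response, had 0.83, 0.90 and 0.90 in UV, against 1.31, 1.65 and 1.26 in Control (change −0.52). Ndufa12, a gene of respiratory complex I, had 1.02, 1.14 and 1.20 in UV, against 1.54, 1.67 and 1.5 in Control (−0.45, SE 0.08, adjusted p = 0.00499 in edgeR with the block). The remaining named peaks were in the splicing factor gene Slu7 (−0.47), the nucleolar protein gene Nol12 (−0.47), the endosomal recycling gene Micall1 (−0.45) and the Golgi matrix gene Golga2 (−0.43). Of the host's input reads, the span held 62.7% for Ercc3, 49.1% for Chd1l and 97.3% for Ndufa12. The shares were 10.2% for Slu7, 29.1% for Nol12, 18.9% for Micall1 and 19.9% for Golga2. The part of intronic reads in these counts was not tested.

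Others among the 37, singled out after their values were seen, were the DNA ligase genes Lig1 (−0.38) and Lig3 (−0.35), the keratinocyte transcription factor gene Klf4 (−0.35) and the hemidesmosome linker gene Dst (−0.29). The 1 peak called higher was in Pfn1, which encodes the actin-binding protein profilin (chr11:70651879-70652719, exons 1 and 2 of 2). It had 1.47, 1.89 and 1.80 in UV, against 0.66, 0.99 and 0.96 in Control. UV values were all higher, a change of 0.87 (SE 0.16, adjusted p = 0.00612 in edgeR with the block, 0.521 without). In input it had 4.67, 3.61 and 3.24 CPM in UV, against 6.05, 5.27 and 6.69 in Control. Every UV value was lower there, while the IP values of 13, 13.5 and 11.4 CPM in UV and 9.57, 10.5 and 13 in Control overlapped. The Pfn1 span held 9.26% of the gene's input reads, and Pfn1 as a whole had an input log2 change of 0.08.

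**Figure D4:**
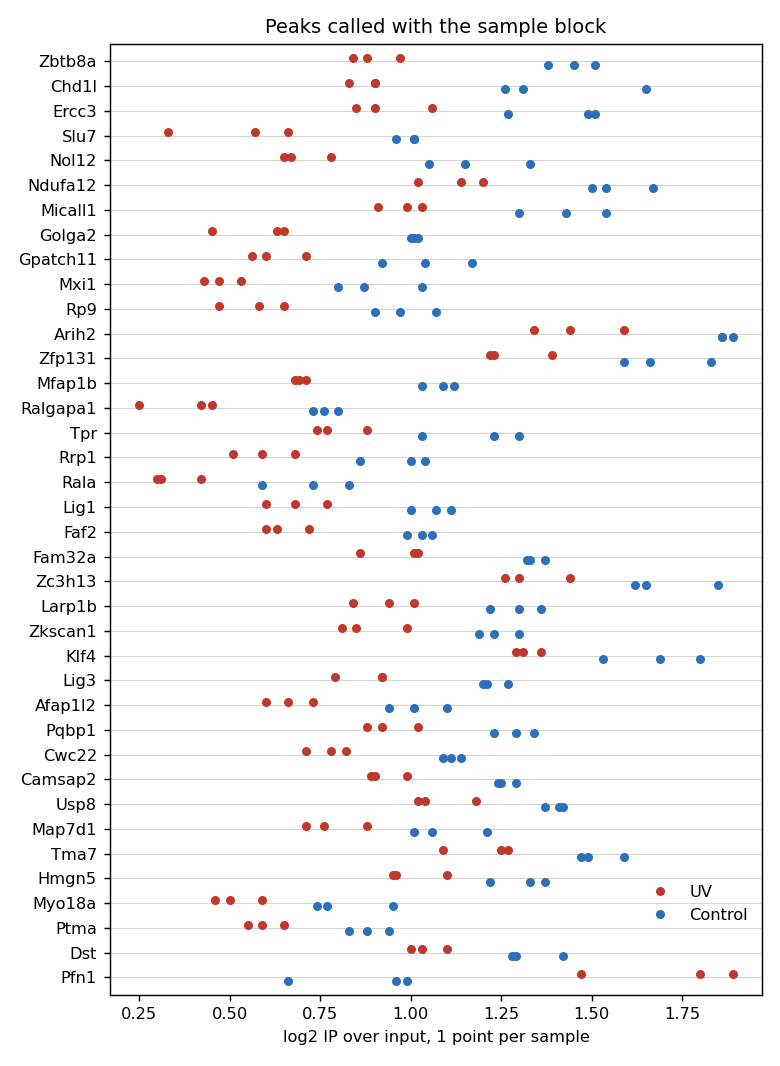
Log2 IP over input in each of the 6 samples (1 point per sample, UV drawn above Control) for the 38 intronic-midpoint peaks called with the sample block, named by host gene and ordered by log2 change. UV lies left of Control in 37 peaks and right of it in Pfn1.

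Input reads, taken before antibody selection, differed between the conditions in 120 of 2555 tested peaks, 94 higher and 26 lower in UV. Of all 36956 tested peaks, 3.2% were called, 1.85% higher and 1.35% lower, against 3.68% and 1.02% here. The median log2 change was 0.05, against −0.07 over all tested peaks. Scaling by library size alone gave 43 higher and 49 lower, where 1.05% and 2.55% of all tested peaks were called, so the balance of directions depended on the scaling. The total fell to 10 without UV 1, 14 without Control 1, 19 without UV 2 and 21 without UV 3. It was 140 without Control 3 and 199 without Control 2.

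Of the genes that rose, Polk, which encodes a translesion DNA polymerase, had a peak over exons 14 to 16 of 16 (chr13:96482158-96484020) with 14.1, 13.9 and 12.6 CPM in UV input, against 6.39, 5.09 and 5.64 CPM in Control input. All UV values were above all Control values, a log2 change of 1.23 (SE 0.12, adjusted p = 0.000623 in edgeR), and the call held without any single sample (adjusted p up to 0.00954). In IP it had 35.5, 29.2 and 30.2 CPM in UV, against 14.4, 13.4 and 13.5 in Control, also without overlap (1.19, SE 0.11, adjusted p = 0.000478 in edgeR). The change in enrichment was −0.04 (SE 0.16). The Tef peak (a clock-controlled transcription factor gene, chr15:81821311-81823597) had 16.4, 15.5 and 17.6 CPM in UV input, against 7.90, 9.87 and 8.47 in Control (0.92, SE 0.12, adjusted p = 0.00411 in edgeR, up to 0.034 without single samples). Its IP change was 0.95 and its enrichment change 0.03.

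Zfp941, a zinc finger gene, had 3.01, 2.38 and 2.11 CPM in UV input over its peak (chr7:140813078-140818620), against 0.710, 0.712 and 0.739 in Control. The groups did not overlap (1.77, SE 0.22, adjusted p = 0.0024 in edgeR), and the call held without any single sample. The span also contained exonic sequence of RP23-114A6.7 on the same strand, and it held 81.6% of the input reads counted for Zfp941. Hoxb9, a homeobox gene, had a change of 1.69 (adjusted p = 0.00969 in edgeR) whose call ended without Control 1 (0.0658). Arhgap24 had 0.93, with the call ending without UV 1 (0.0636). The rises of Nucb2 (0.93), which encodes a calcium-binding protein, and Tlcd2 (0.91) ended without Control 1, UV 1 or UV 2, and that of Clmn (0.92) without Control 1 or any UV sample.

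The largest fall was in Krt77, a keratin gene of the upper epidermis and one of the differentiated keratinocyte markers. Its peak (chr15:101859629-101860976, exons 7 to 9 of 9) had 46.1, 25.5 and 28.1 CPM in UV input, against 509, 387 and 335 CPM in Control input. All UV values were far below the Control values, a log2 change of −3.64 (SE 0.23, adjusted p = 4.45e-05 in edgeR). In IP it had 77.2, 40.8 and 42.7 CPM in UV, against 741, 658 and 516 in Control (−3.58, SE 0.24), and its enrichment change was 0.05. The summed level of all 7 differentiated keratinocyte markers overlapped between the conditions, at 50253 to 82206 CPM in UV and 27168 to 72970 CPM in Control. Fcgbp, the gene of a secreted mucin-like protein, had 0.933, 1.24 and 1.39 CPM in UV input, against 6.40, 4.63 and 5.03 in Control (−2.16, SE 0.19, adjusted p = 0.000421 in edgeR).

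Sema3d, the gene of a secreted guidance protein, had 6.77, 6.22 and 9.03 CPM in UV input, against 25, 25.4 and 16.6 in Control (−1.60, SE 0.18, adjusted p = 0.00164 in edgeR). Stk10, a serine/threonine kinase gene, had 10.4, 9.65 and 11.2 CPM in UV input, against 19.8, 20.9 and 20 in Control (−0.96, SE 0.11, adjusted p = 0.00134 in edgeR). For Fcgbp, Sema3d and Stk10 the groups did not overlap and the call held without any single sample. The slow-muscle troponin gene Tnnt1 had −1.24, a call that ended without Control 1, UV 1 or UV 2. The summed muscle markers are given above, and their part in the Tnnt1 value was not tested. Calls for Col28a1 (−1.06), a collagen gene, Nynrin (−1.02) and Dlx3 (−1), a homeobox gene of epidermis and hair, ended without Control 1 or any UV sample, and that of Nynrin also without Control 3.

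The input change of a peak was set beside that of its host gene over all exons. Across 2555 peaks, which share the 6 libraries, Pearson's r between the log2 changes was 0.787, given as a description. The median difference, peak minus host, was 0.00, and 90% of the peaks lay between −0.37 and 0.24. Of the 120 called peaks, 76 had a host gene called in the same direction and 0 in the opposite one, while 44 had a host that was not called. Another 81 peaks were not called in genes that were. Over all 24099 genes tested, 5.83% were called. The peaks of Polk and Krt77 had log2 changes of 1.23 and −3.64, against 1.29 and −3.73 for the whole genes. A peak and its host can share reads, so the values may not be independent.

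**Figure D5:**
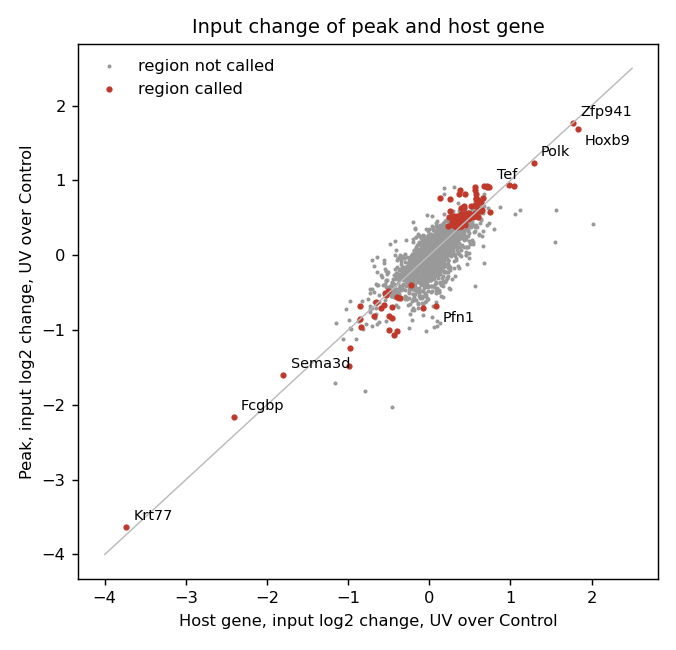
Log2 change of input reads, UV over Control, of each of 2555 intronic-midpoint peaks (vertical) against that of its host gene (horizontal), with the line of equal change. The 120 called peaks are in red and 8 are named. Krt77 (−3.64) and Zfp941 (1.77) lie near the line, and Pfn1 (−0.67) lies below it.

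IP reads alone differed in 52 of the 2562 peaks (2.03%), 30 higher and 22 lower in UV, where 1.91% of all 40903 tested peaks were called. The share was near that of all peaks. The total was 9 without UV 1, 13 without Control 1, 21 without UV 2, 41 without UV 3 or without Control 2, and 106 without Control 3. Zfp941 (1.67), Hoxb9 (1.52), Polk (1.19) and Tef (0.95) were among the higher calls, and Krt77, Fcgbp (−2.22), Sema3d (−1.89) and Tnnt1 (−1.30) among the lower ones. The peaks named here and not in input follow. Enah, an actin regulator gene, had 4.21, 3.27 and 3.03 CPM in UV IP, against 1.71, 1.05 and 2.00 in Control IP (1.17, SE 0.24, adjusted p = 0.0338 in edgeR). Ephx1, the microsomal epoxide hydrolase gene, had 6.18, 6.38 and 7.67 CPM in UV IP, against 3.90, 3.15 and 3.79 in Control IP (0.90, SE 0.15, adjusted p = 0.0142 in edgeR). Atf3, a stress-induced transcription factor gene, had 2.62, 2.45 and 3.36 CPM in UV IP, against 6.89, 5.54 and 4.35 in Control IP (−1.02, SE 0.20, adjusted p = 0.0264 in edgeR). In each the groups did not overlap. The calls ended without Control 1, Control 2 or any UV sample for Enah, without Control 1 or UV 1 for Ephx1, and without Control 1, UV 1 or UV 2 for Atf3. Fbxo22 (0.87), Ccdc155 (−1.11) and Sectm1a (−0.98) were the others. The Fbxo22 span faces exonic sequence of Nrg4 on the opposite strand. The call of Ccdc155 ended without UV 1 or Control 1, and those of Fbxo22 and Sectm1a without any UV sample, Control 1 or Control 2.

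Genes of the m6A machinery held 9 of the peaks, in 5 of the 23 measured genes of the list (Virma, Zc3h13, Ythdc1, Ythdf3 and Hnrnpa2b1). None of the 9 was called in the enrichment change without the sample block, in input or in IP. With the block 1 was called lower, in Zc3h13, where 0.593% of all tested peaks were. The median enrichment change of the 9 was −0.23, beside −0.06 for the intronic-midpoint peaks and 0.04 for all tested peaks. Virma, held in the files under its older name 1110037F02Rik, had a peak over exons 7 and 8 of 25 (chr4:11507965-11513083). Its log2 IP over input was 0.76, 0.82 and 0.62 in UV, against 1.30, 0.84 and 1.14 in Control, with UV values all lower by a fitted −0.35 (SE 0.14, adjusted p = 0.565 in edgeR). With the sample block the change was −0.36 (SE 0.09, adjusted p = 0.0563 in edgeR) and was not called either. In input the Virma peak had 71.8, 78.3 and 79.9 CPM in UV, against 50.7, 62.2 and 57.0 in Control (0.43, SE 0.11, adjusted p = 0.0502 in edgeR). Those groups did not overlap, but the change missed the threshold. The span, with 271 exonic bases, held 71.1% of the input reads counted for Virma, and the part of intronic reads in this was not tested.

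Zc3h13, which encodes the writer subunit that holds the complex in the nucleus, carried 4 peaks between exons 8 and 15 of 19. The peak over exons 14 and 15 (chr14:75331209-75332193) had log2 IP over input of 1.26, 1.44 and 1.30 in UV, against 1.65, 1.85 and 1.62 in Control. Values in UV were all lower, with a change of −0.38 (SE 0.13, adjusted p = 0.541 in edgeR, or 0.0202 with the sample block). The others had changes of −0.29, −0.23 and 0.08, and the peak over exons 8 and 9, the last of these, was also the least enriched, at 0.76 in UV and 0.68 in Control against 1.33 to 1.70 in UV and 1.64 to 1.99 in Control. Ythdc1, the nuclear reader gene, had changes of −0.26 over exons 15 and 16 and 0.04 over exons 3 and 4. No peak of this set lay in Mfap4.

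Splicing factor genes held 32 of the peaks, in 23 of 49 genes. None was called in any of the enrichment, input and IP comparisons, and the median enrichment change was −0.12. Snrnp70, the gene of a core protein of the U1 particle, had log2 IP over input of 1.04, 1.09 and 1.13 in UV, against 1.35, 1.43 and 1.25 in Control, with UV all lower (−0.26, SE 0.11, adjusted p = 0.586 in edgeR). Srsf11, an SR-related protein gene, had 1.18, 1.22 and 1.13 in UV, against 1.37, 1.38 and 1.42 in Control (−0.22), likewise without overlap. Hnrnpm had −0.29, and the peaks of the kinase gene Prpf4b had −0.23, −0.07 and 0.10. In the opposite direction, Nktr had 0.19 and 0.05 over its peaks and Srsf10 had 0.20. The RNA helicase genes Ddx5 and Ddx17 were little enriched, at 0.12 and 0.42 in UV and 0.22 and 0.34 in Control.

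The p53 and damage response list held 4 of the peaks, in 3 of 21 genes. In input 2 rose (Polk and Aen), where 1.85% of all tested peaks were called higher. In IP 1 rose (Polk), where that share was 1.08%. With 4 peaks, these counts do not describe the list. Aen, which encodes a p53-induced nuclease, had 23.7, 21.3 and 22.5 CPM in UV input, against 16.4, 14.7 and 15.1 in Control. The groups did not overlap (0.54, SE 0.10, adjusted p = 0.0223 in edgeR), but the call ended without Control 1 or any UV sample (up to 0.118). Xpc, the gene of a damage sensor of nucleotide excision repair, had 2 peaks, with enrichment changes of −0.43 over exons 2 and 3 and 0.14 over exons 1 and 2. The first had log2 IP over input of 0.41, 0.55 and 0.46 in UV, against 1.03, 0.86 and 0.80 in Control, without overlap, and was not called (adjusted p = 0.621 in edgeR).

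Collagen and microfibril genes held 5 of the peaks, in 4 of 33 genes. In input 1 of these fell, where 1.35% of all tested peaks were called lower. It was that of Col5a3, a fibrillar collagen gene, with 9.84, 11 and 9.33 CPM in UV, against 16, 12.3 and 15.1 in Control (−0.54, SE 0.13, adjusted p = 0.0453 in edgeR). The groups did not overlap, and the call ended without Control 1, Control 3 or any UV sample. All 6 fibroblast markers were detected, and their summed input level moved the same way, at 5591 to 6525 CPM in UV and 7860 to 8822 CPM in Control. The part of that shift in the Col5a3 value was not tested. Enrichment changes of the 5 lay between −0.02 and 0.08. Col17a1, which encodes the hemidesmosome collagen, had a peak over exons 1 to 3 at 0.98 in UV and 1.01 in Control, and one over exons 9 to 14 at 0.38 in UV and 0.39 in Control.

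Genes of epidermal adhesion held 7 peaks, in Dst, Plec, Cdh1 and Dsg1a. The Dst peak over exons 35 and 36 of 106 (chr1:34174740-34178729) had 531, 447 and 551 CPM in UV input, against 354, 283 and 327 in Control. UV values were all above Control values (0.66, SE 0.11, adjusted p = 0.0153 in edgeR), and the call ended without UV 1 or UV 3. The span also faces exonic sequence of Gm26788 on the opposite strand. The summed input level of the 7 basal keratinocyte markers was higher too, at 9548 to 14107 CPM in UV and 4794 to 9525 CPM in Control, and its part in the Dst value was not tested. The log2 IP over input of this Dst peak was 1.00, 1.10 and 1.03 in UV, against 1.28, 1.42 and 1.29 in Control, the change called with the sample block (−0.29, adjusted p = 0.0285 in edgeR). The further Dst peaks had changes of −0.08 and −0.02. Plec, the gene of the cytolinker plectin, had 1.49, 1.37 and 1.64 over exons 27 and 28 in UV, against 1.10, 1.33 and 1.11 in Control, with UV all higher (0.34, SE 0.17, adjusted p = 0.629 in edgeR).

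In genes with 5 or more of the peaks, fitted log2 IP over input had the following spread. The 6 peaks of Arid4b ran from 0.70 to 1.49 in UV and from 0.73 to 1.34 in Control, with changes between −0.16 and 0.33. Those of Bdp1 ran from 0.30 to 0.75 in UV and from 0.48 to 1.08 in Control, with changes between −0.34 and 0.04. Those of Cenpe ran from 0.55 to 1.08 in UV and from 0.69 to 1.26 in Control, with changes between −0.27 and 0.02. Cntrl had 0.67 to 1.11 in UV and 0.57 to 1.26 in Control, with changes between −0.16 and 0.10. In Ttn all 5 were above the median of the set in both conditions, at 1.23 to 1.73 in UV and 1.38 to 1.69 in Control. Changes in Ttn lay between −0.27 and 0.13.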

How the data were processed

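RNA of 3 UV and 3 Control mouse skin samples was sequenced as an m6A IP and an input library each, with a stranded mRNA kit per the labels. The authors deposited raw read counts per gene and per peak, and in the peak table their own log2 fold change, p-value and FDR, per the file headers. STAR 2.5.3a and GRCm38 are named in the submitters' processing notes; the sources used here give no peak caller, read counter, annotation release or strand setting. Peak starts counted from 0: 632 starts met an exon start after 1 was added, against 39 without.

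The intronic-midpoint peaks, the lists and the tests were chosen with earlier results of these data known. Counts were analysed in R 4.3.3 with edgeR 4.0.16 (quasi-likelihood test, filterByExpr, library sizes and TMM factors of the gene table, 12 libraries in 4 groups for enrichment, 6 for input or IP), adjusted over all peaks and called at 0.05. CPM are scaled counts; log2 IP over input per sample used a prior count of 2. Alternatives were DESeq2 1.42.0, other scalings, no low-count filter, UV peaks only, leaving out samples and a block. Named peaks were up to 8 called per direction and comparison by size of change (mean of at least 1 CPM, groups not overlapping, no Gm or Rik names), the 5 highest in IP and in IP over input, and up to 4 per list by the smallest enrichment p. With no call in the enrichment change, that rule was applied to the calls of the block fit.

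Same-numbered IP and input departures from group means correlated at 0.307 to 0.529 over 29258 peaks, so the numbers pair them; those of UV and Control did not (−0.0757 to 0.104). On simulated counts over 41370 peaks the enrichment fit recovered 28 of 100 changes of 2-fold and 96 of 100 of 4-fold. The simulation gave every peak the same assumed dispersion and drew IP and input of a sample independently. Its shares are therefore not the power of these data.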

Additional observations from a re-analysis of the deposited data

How the results depend on the processing

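The enrichment change gave 0 calls in every alternative other than the replicate block (38). Combined with other settings, alternatives that were added after seeing the data, the block gave 14 calls with library size only, 26 with TMM on the peak table and 0 to 315 when single samples were left out. Input calls (120) numbered 182 with DESeq2 and 10 to 199 without single samples. IP calls (52) numbered 111 with DESeq2 and 9 to 106 without single samples. IP over input calls with TMM on the peak table numbered 1343 in UV (176 higher, 1167 lower) and 1140 in Control (187 higher, 953 lower). Medians of IP over input were 0.75 in UV and 0.72 in Control with library size only, and reversed to −0.30 in UV and −0.24 in Control with TMM on the peak table, which centres the peaks by construction. The median enrichment change reversed to 0.04 with library size only. The cause of the other differences was not tested. The sample numbers did not pair UV with Control, and a block on them gave 112 input and 66 IP calls. The 2562 peaks became 1867 with an overlap of at least 50%, 2040 with a limit of 5000 bp and 2547 without midpoints in another gene's exon on the strand. In the simulation, with its single assumed dispersion and independent libraries, 28 of 100 2-fold enrichment changes were recovered. Depth was not varied.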
